A study of Arabidopsis thaliana with 28 samples.

Results

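The comparison was between the wild-type (WT) seedlings of 2 inbred accessions of *Arabidopsis thaliana*, C24 and Columbia (Col). It used the 3 WT-C24 and the 3 WT-Col RNA libraries, 6 of the 28 samples of the series, and the 19655 genes, of 28437 in the table, that reached at least 1 RPM (reads of a gene, scaled to the number of reads in the library) in at least 3 of these 6 libraries. The study asked how hybrids of the accessions outgrow their parents and what the chromatin remodeler DDM1 contributes, so the parental difference is the variation that the hybrids start from. Its other RNA libraries were reciprocal WT hybrids and *ddm1* loss-of-function parents and hybrids, 24 RNA libraries in all, and the 4 bisulfite samples were not analysed here.

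WT-Col and WT-C24 are the wild-type parents, and the sources used here name no mutation, transgene or treatment for them. *ddm1*-Col and *ddm1*-C24, used here beside them, are the same accessions without functional DDM1, and the labels name no allele. All were whole seedlings, labelled as 2 weeks old and grown on diluted Murashige and Skoog medium. The labels give days of 16 h light and 8 h dark at 22 °C, and the study's methods name both continuous light and long days. Replicates are numbered 1 to 3 in each genotype. Plants were grown on plates in triplicate, but no source used here says what the shared number stands for. With replicate number as a block, the p-values measure the spread between these samples that is left once the shared number is taken out. Fits with this block gave the p-values, SEs and calls below unless the text says that the block was left out. P-values without the block measure the whole spread between these samples within each accession.

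Accessions are wild collected lines, kept by selfing, that differ by sequence changes, by the presence or absence of genes and by stable chromatin states. Salicylic acid (SA) is a plant hormone that activates defence against pathogens that feed on living cells, and high SA signalling goes with smaller plants. Glucosinolates are sulfur-containing defence compounds of the cabbage family, and the enzymes that make and break them are known to vary between accessions. FLC, a MADS-box repressor of flowering, sets much of the difference in flowering time between accessions.

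Of the 19655 genes, 3419 (17.4%) differed between the accessions at an adjusted p under 0.05 (limma on log2(RPM + 0.5), replicate number as a block, Benjamini-Hochberg). In C24, 1728 (8.79%) were higher and 1691 (8.6%) lower, and the median difference over all 19655 genes was -0.005 on the log2 scale, in which 1 is a doubling. The median of the higher genes was 0.86 and of the lower genes -0.85. Differences over 1 were found for 722 higher and 663 lower genes, together 40.5% of those called, and differences over 3 for 100 and 133. All 3 C24 libraries lay on one side of all 3 Col libraries for 1146 of the higher and 1037 of the lower genes, and for 15.9% of all kept genes. Without the replicate block, 793 genes were called, all of them among the 3419 and in the same direction. Without replicate 1 of both accessions, 1645 genes were called.

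Differences were spread over the genome. On chromosomes 1 to 5 the share called was 17.5%, 16.4%, 16.7%, 19.2% and 17.3%. Protein coding genes were called in 16.7% of 19240 cases and annotated pseudogenes in 61.1% of 221, with 59 pseudogenes higher and 76 lower in C24. Both shares include genes that passed the filter through 1 accession alone, whose direction follows from the filter. How many of the pseudogenes did so was not determined, so the shares are not a like comparison. Reads of both accessions were aligned to the Col genome, so in WT-C24 alone a silent gene and one that is missing or diverged cannot be told apart. Some genes near 0 in WT-C24 were read in *ddm1*-C24, given with the *ddm1* libraries and with the genes listed at 0. Where genes overlap or have near-identical copies their values are uncertain, because how such reads were counted was not stated.

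The 6 libraries also differed by replicate number. Of the variation between them on the log2 scale (sum of squares over genes), 52.1% went with replicate number, 42.1% with accession and 5.8% with neither. Replicate number has 3 levels and accession has 2, so these shares do not rank the sources. Replicate 3 of both accessions had low transcripts of light harvesting proteins, and WT-C24 replicate 2 stood apart from WT-Col replicate 2 in clock genes, given below. Seed transcripts were high in all 3 C24 libraries. The summed level of the 13 seed markers was 18.4, 14.7 and 9.9 RPM in WT-Col and 1989.3, 1153.9 and 603 RPM in WT-C24, and their part in the other results was not tested. Leaf markers were abundant in both accessions (19636.2 to 37583.3 RPM summed over 5 genes), and *KAT1* of guard cells was at 15.2 to 33.5 RPM. Root markers summed to 87.6 to 126 RPM and flower markers to 6.2 to 8.8 RPM, with overlapping groups in both cases.

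**Figure D1:**
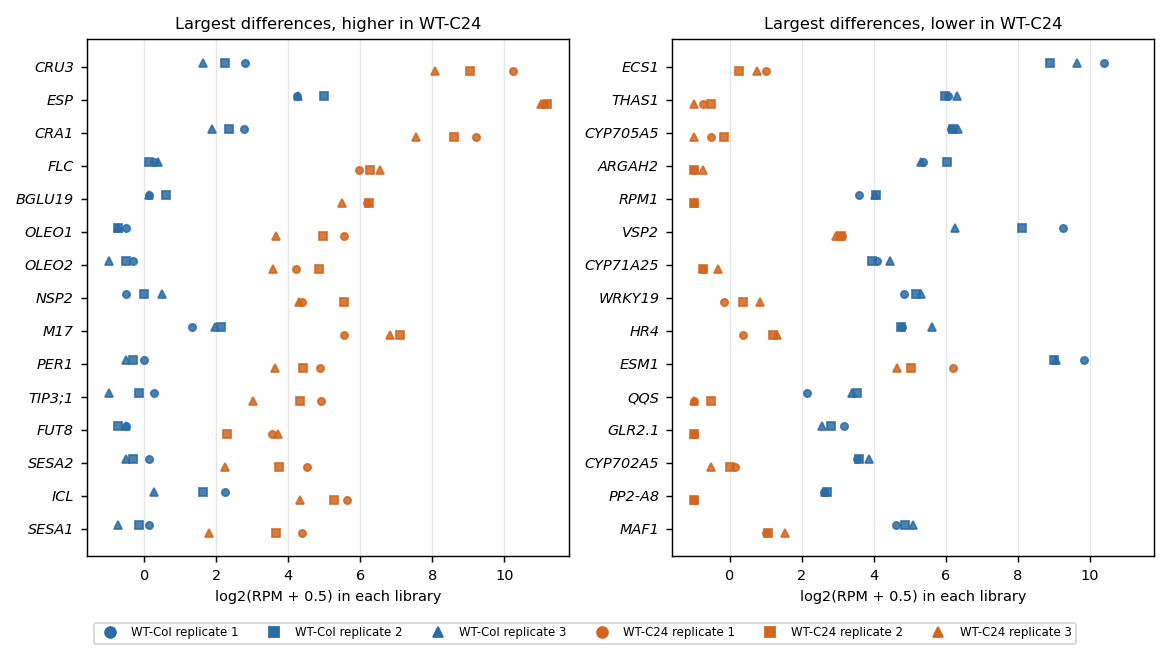
Level of the 15 genes with the largest difference in each direction, protein coding, with a symbol and with groups that did not overlap. Each point is 1 library on the log2(RPM + 0.5) scale, on which a gene at 0 RPM lies at -1, and the C24 libraries of every gene shown lie to one side of the Col libraries.

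The largest difference with a gene symbol among the higher genes belonged to the seed protein *CRU3*, a cruciferin, the main storage globulin of the seed. It was at 6.4, 4.2 and 2.6 RPM in WT-Col and at 1224.3, 529.7 and 269.6 RPM in WT-C24. All C24 libraries were far above all Col libraries, with the lowest in replicate 3 of both accessions (log2 difference 6.91, SE 0.19, adjusted p = 1.19e-05). *CRA1*, another cruciferin, was at 6.3, 4.6 and 3.2 RPM in WT-Col against 590, 390.4 and 185.4 RPM in WT-C24 (6.12, SE 0.16). The oil body protein *OLEO1* was at 0.1 to 0.2 RPM in WT-Col and at 46.2, 30.4 and 12 RPM in WT-C24 (5.38, SE 0.32). *OLEO2* (4.84), the late embryogenesis protein gene *M17* (4.68), the albumins *SESA2* (3.74) and *SESA1* (3.53), the seed peroxiredoxin *PER1* (4.59) and the vacuolar aquaporin *TIP3;1* of seeds (4.38) rose with them. Isocitrate lyase (*ICL*), a glyoxylate cycle enzyme that turns stored oil into sugar at germination, was at 4.2, 2.6 and 0.7 RPM against 48.9, 37.9 and 19.5 RPM (3.69, SE 0.16).

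Of the 13 seed markers 9 were kept and called higher, beside 8.79% of all genes, and 8 were called without the replicate block. For 6 of the 9, fewer than 3 WT-Col libraries reached 1 RPM, so that they were kept only because they were high in C24, and their direction follows from the filter. The 3 that reached 1 RPM in all WT-Col libraries were *CRU3*, *CRA1* and *M17*. Of the 4 markers not kept, *ABI3*, a regulator of seed maturation, was at 0.1 to 0.2 RPM in WT-Col and 0.7 to 3.5 RPM in WT-C24. In the WT hybrids the same 13 genes summed to 149, 74 and 3.4 RPM with Col as the mother. With C24 as the mother they summed to 662, 160 and 142 RPM. The sums were 55.3, 50.4 and 3.2 RPM in *ddm1*-Col and 440, 163 and 151 RPM in *ddm1*-C24. The share of seed tissue in a seedling sample and the level per cell cannot be told apart in whole seedlings.

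Promoters of seed storage genes often carry the RY element CATGCA, a binding site of seed maturation factors. To show it at the seed markers that differed most, a window at each was read from the TAIR10.1 genome (RefSeq). Each window runs from 250 bases before the annotated gene start to 50 bases after it, with CATGCA on either strand in capitals. The first is chr4:14087306-14087605 on the plus strand, the second chr5:17758287-17758586 on the minus strand and the third chr4:12900180-12900479 on the plus strand, each printed 5′ to 3′.
CRU3: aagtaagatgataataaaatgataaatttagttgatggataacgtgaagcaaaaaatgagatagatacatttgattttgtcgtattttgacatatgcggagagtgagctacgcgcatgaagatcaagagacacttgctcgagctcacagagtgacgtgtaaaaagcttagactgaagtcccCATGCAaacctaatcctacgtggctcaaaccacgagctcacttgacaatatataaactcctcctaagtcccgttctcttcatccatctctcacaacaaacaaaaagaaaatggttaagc
CRA1: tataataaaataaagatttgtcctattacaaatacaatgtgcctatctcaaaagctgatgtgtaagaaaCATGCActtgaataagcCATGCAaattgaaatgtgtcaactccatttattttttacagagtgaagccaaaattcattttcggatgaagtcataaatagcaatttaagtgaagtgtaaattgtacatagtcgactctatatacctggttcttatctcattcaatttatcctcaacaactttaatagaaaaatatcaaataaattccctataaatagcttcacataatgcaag
OLEO1: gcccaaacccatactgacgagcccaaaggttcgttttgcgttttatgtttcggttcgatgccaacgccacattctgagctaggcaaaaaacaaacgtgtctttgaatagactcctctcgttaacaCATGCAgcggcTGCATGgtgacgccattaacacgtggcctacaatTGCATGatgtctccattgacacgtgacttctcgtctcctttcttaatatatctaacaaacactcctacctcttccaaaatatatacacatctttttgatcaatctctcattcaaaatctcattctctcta
*CRU3* had 1 match, *CRA1* had 2 and *OLEO1* had 3. Of the 13 seed markers, 8 (61.5%) held CATGCA in such a window, and of all 24193 protein coding genes 2313 (9.56%) did. A match is a description of the letters and not of a bound site.

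Among the remaining genes with the largest rise in C24, *ESP* and *NSP2* encode specifier proteins that set the products of glucosinolate breakdown, and *FLC* represses flowering. *BGLU19*, a beta glucosidase, was at 0.6, 1 and 0.6 RPM in WT-Col and at 72.4, 74.9 and 44.2 RPM in WT-C24 (5.68, SE 0.17). The fucosyltransferase gene *FUT8* was at 0.1 to 0.2 RPM against 11.1, 4.4 and 12.7 RPM (3.77, SE 0.27). No WT-Col library was above 1 RPM for *BGLU19*, *FUT8*, *FLC*, *NSP2*, *PER1* or *TIP3;1*. As with the seed markers, these genes were kept only because they were high in C24, and their direction follows from the filter.

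On the lower side the largest difference was that of *ECS1* (chr1:11310997-11311989), which was at 1363.9, 477.6 and 805.6 RPM in WT-Col and at 1.5, 0.7 and 1.2 RPM in WT-C24 (-8.98, SE 0.15, adjusted p = 1.03e-05). All C24 libraries were close to 0 and none overlapped with Col. *ARGAH2*, an arginase, was at 40.9, 65.8 and 39.1 RPM against 0 to 0.1 RPM (-6.49, SE 0.22). *VSP2*, a jasmonate induced storage protein, was at 617.3, 279.6 and 76.2 RPM against 8.2, 8.1 and 7.2 RPM (-4.83, SE 0.47), so that the Col libraries varied far more than the C24 libraries. *QQS*, a gene of recent origin known to vary with its DNA methylation, was at 3.9, 11.2 and 10.1 RPM against 0, 0.2 and 0 RPM (-3.87, SE 0.27). The cytochrome P450 genes *CYP71A25* (-4.77) and *CYP702A5* (-3.79) and *WRKY19* (-4.76), which joins WRKY and kinase domains, were lower as well. The glutamate receptor gene *GLR2.1* and the phloem protein gene *PP2-A8* were listed at 0 in all 3 C24 libraries, against 5.4 to 8.6 RPM and 5.7 to 6 RPM in WT-Col. No WT-C24 library reached 1 RPM for *ARGAH2*, *QQS*, *CYP71A25*, *CYP702A5*, *GLR2.1* or *PP2-A8*. The same holds for *RPM1*, *THAS1* and *CYP705A5*, given below. These genes were kept only because they were high in Col, and their direction follows from the filter.

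Abundant transcripts differed as well. *UBQ10*, a polyubiquitin gene, was at 2073.2, 1497.4 and 1327.5 RPM in WT-Col and at 542.5, 603.2 and 431.4 RPM in WT-C24 (-1.62, SE 0.15, adjusted p = 0.00101). Polyubiquitin genes share repeats, so reads could be split among them, and the difference is uncertain for that gene alone. The aldolase *FBA5* (-0.46, SE 0.12) and *TCTP* (-0.67, SE 0.12) were lower with overlapping groups. Among the higher genes the most abundant were *CAB3* (1.00, SE 0.20), a near-identical copy of another light harvesting gene, the unnamed AT5G42530 (1.18, SE 0.15) and *ESP*. *CAB3* ranged from 134.9 to 2170.4 RPM within WT-Col and lost its call without replicate 2 or without replicate 3.

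**Figure D2:**
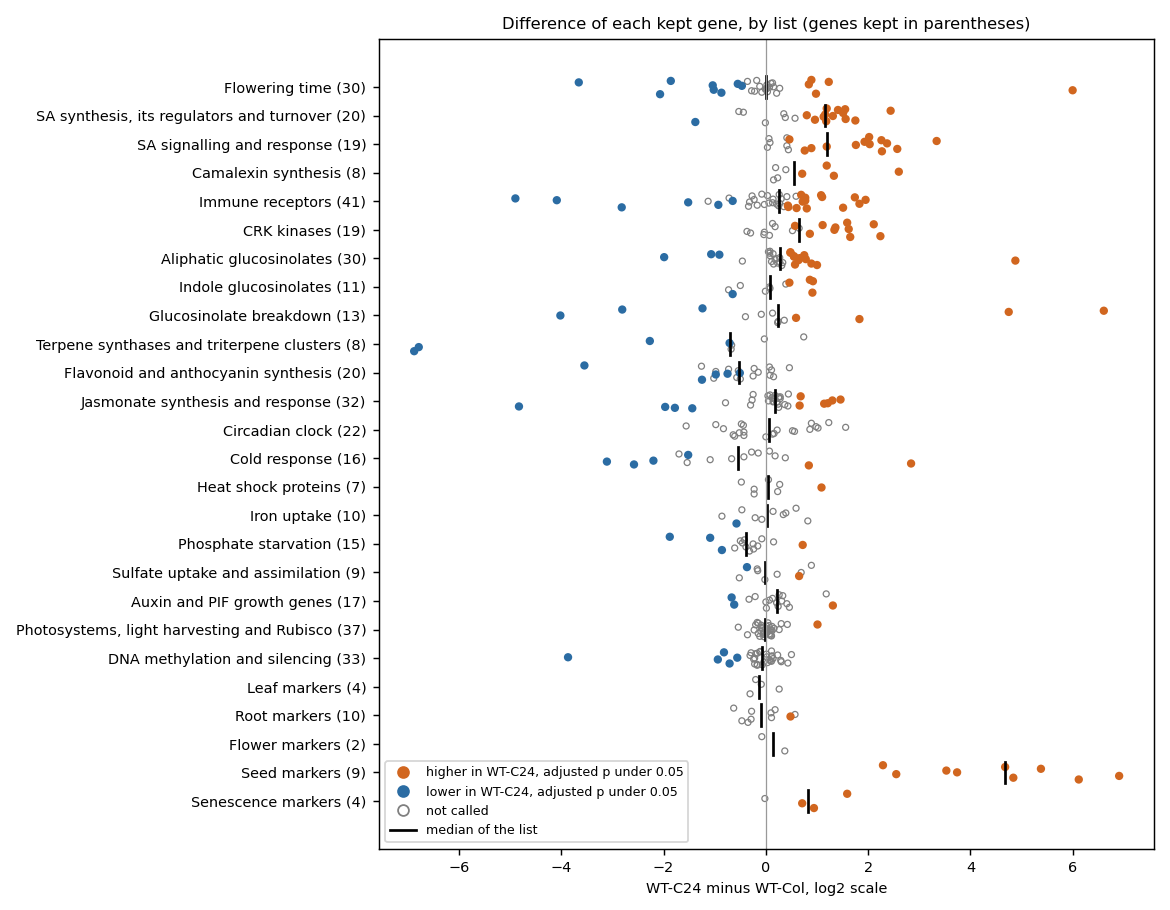
Difference between WT-C24 and WT-Col of every kept gene in the 26 lists, on the log2 scale. Filled points are genes called at an adjusted p under 0.05, open points are the others, and the bar is the median of the list. SA synthesis has a median of 1.15 and SA signalling of 1.19, the seed markers shown are those that passed the filter, and no clock gene is filled.

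SA genes were higher in C24. Of 39 kept genes in the lists of SA synthesis and SA signalling, 26 were called higher and 1 lower, with a median of 1.16 against -0.005 over all genes. Over all genes 8.79% were called higher. Without the replicate block 16 were higher and 0 lower at an adjusted p under 0.05 (32 of the 39 had an unadjusted p under 0.05 with the block), and 24 to 26 were higher and 1 or 2 lower when any 1 replicate number was left out. With no block and 1 library left out, 7 (without WT-Col replicate 2) to 13 (without WT-Col replicate 3) were higher, and 9 without WT-Col replicate 1, WT-C24 replicate 1 or WT-C24 replicate 3.

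Within the synthesis list, *ICS1*, the isochorismate synthase that makes most pathogen-induced SA, was at 15.9, 16.4 and 20.5 RPM in WT-Col and at 40.5, 51.8 and 50.7 RPM in WT-C24. The groups did not overlap (1.41, SE 0.11, adjusted p = 0.000469). *PBS3*, which joins glutamate to isochorismate in the next step, rose by 1.56 (SE 0.11), and the export carrier gene *EDS5* differed by 0.57 and was not called. The partner lipase-like regulators *EDS1* (0.80), *PAD4* (1.31) and *SAG101* (0.96) were all higher, as were the transcription factor genes *CBP60g* (1.18) and *SARD1* (1.55) that act on *ICS1*. *DMR6*, an SA hydroxylase that removes the hormone, was at 49.1, 31.3 and 38.9 RPM against 164.3, 126.5 and 112.2 RPM (1.75, SE 0.11).

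N-hydroxypipecolic acid, the mobile partner signal of SA, is made by ALD1, SARD4 and FMO1 in that order. *ALD1* was at 1.3, 1.3 and 3.1 RPM in WT-Col and at 11.6, 13.8 and 10.3 RPM in WT-C24 (2.44, SE 0.28), the largest rise of the synthesis list, and *FMO1* rose by 1.19 (SE 0.28). AT5G52810, which encodes SARD4, went the other way, from 22.3, 25.9 and 43.1 RPM in WT-Col to 9.7, 8.5 and 15.8 RPM in WT-C24 (-1.38, SE 0.12), with no overlap. It was the 1 lower gene of the 39.

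Within the signalling list, *PR1*, the usual marker of SA response, was at 22.6, 36.4 and 77.3 RPM in WT-Col and at 323.2, 372.1 and 568.6 RPM in WT-C24. Every C24 library exceeded every Col library, and replicate 3 was highest in both (3.34, SE 0.17, adjusted p = 9.96e-05). *PR2*, a glucanase, was at 74.1, 43.5 and 94.7 RPM against 330.9, 220 and 165.6 RPM (1.76, SE 0.28), and *PR5* rose by 2.26 (SE 0.15). The SA receptor genes *NPR1* (0.46, SE 0.09) and *NPR3* (0.76, SE 0.11) rose as well, and *NPR4* (0.41) was not called. Rises were also found for the NPR1-binding *NIMIN-2* (2.37, SE 0.18) and for the SA-responsive factors *WRKY38* (2.57), *WRKY51* (2.27), *WRKY70* (2.03) and *WRKY54* (1.93). Of the TGA factors that bring NPR1 to promoters, *TGA5* was called (0.89) and *TGA2*, *TGA3* and *TGA6* differed by 0.03 to 0.08 and were not.

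The same windows were searched at the SA genes for TTGAC, the W-box core bound by WRKY factors, and TGACG, the core site of TGA factors, on either strand. TTGAC was found in the windows of 12 of 20 signalling genes (60%), 14 of 21 synthesis genes (66.7%) and 50.8% of all protein coding genes. TGACG was found in 30%, 14.3% and 23.4% of these groups. A match is again only a description of the letters.

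**Figure D3:**
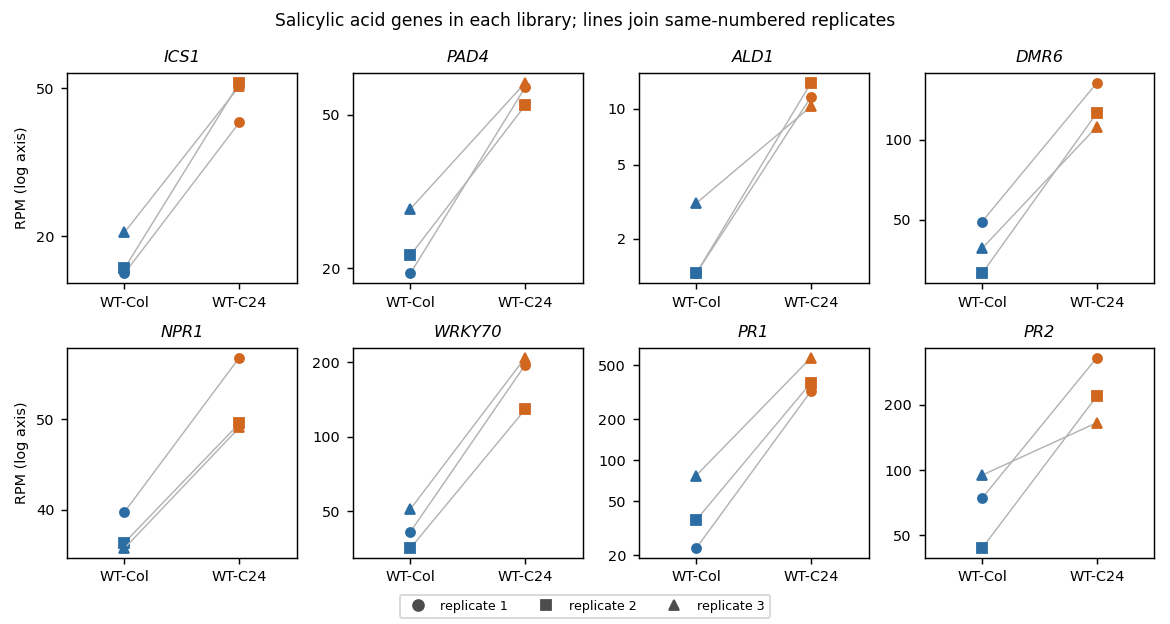
RPM of 8 SA genes in each of the 6 libraries on a log axis, with lines joining libraries of the same replicate number. In each panel the 3 WT-C24 points lie above the 3 WT-Col points, and PR1 spans the widest range (22.6 to 568.6 RPM).

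Other defence genes were called in both directions. Camalexin is the main antimicrobial indole of *Arabidopsis*. Of 8 genes for its synthesis 4 were higher and 0 lower (50% called, beside 17.4% of all genes, and unadjusted p under 0.05 for 4), and 1 was higher without the replicate block. They were led by the P450 gene *CYP71A13*, at 3.7, 3.3 and 3.8 RPM against 23.8, 24.1 and 25.2 RPM (2.60, SE 0.12). *PAD3*, the last step, rose by 1.33 (SE 0.22), whereas *CYP79B2* (0.15) and *CYP79B3* (0.19), which are shared with indole glucosinolates, were not called. Of the 19 cysteine-rich receptor-like kinases (CRKs) in the chromosome 4 array, 10 were higher and 0 lower (52.6% called, beside 17.4%), and 6 were higher without the replicate block. The largest rises were those of *CRK23* (2.24), *CRK7* (2.11), *CRK24* (1.65) and *CRK14* (1.62). CRK copies are similar in sequence, so the values of single copies are uncertain.

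Of 41 immune receptor genes, 14 were higher and 6 lower, that is 48.8% called beside 17.4% of all genes, with a median of 0.25. There were 3 higher and 5 lower without the replicate block, so that the balance turned, and 8 were higher without replicate 1. *RPM1*, a receptor for effectors of *Pseudomonas*, was at 11.6, 16.1 and 16 RPM in WT-Col and listed at 0 in all 3 WT-C24 libraries (adjusted p = 3.24e-05), and no fold is given. *HR4*, of the RPW8 family of resistance genes, was at 27.3, 26.4 and 48.4 RPM against 0.8, 1.8 and 2 RPM (-4.09, SE 0.19), while its relative *HR3* was higher in C24 (1.95, SE 0.23). The neighbours *VICTR* and *VICTL* also went apart, *VICTR* from 6.5, 7.2 and 7 RPM to 16.8, 21.9 and 23.4 RPM (1.51) and *VICTL* from 14, 18.9 and 23.3 RPM to 1.3, 2.1 and 3.6 RPM (-2.82). *CSA1* rose by 1.83 (SE 0.09), *RLP23*, a receptor-like protein, by 1.74 (SE 0.27), and *SNC1*, whose overactivity raises SA, by 0.72 (SE 0.09). In the cluster of *SNC1*, *RPP4* (-1.13, adjusted p = 0.0559) and *RPP5* (-0.32) were not called, and *RLM3* was lower (-1.52, SE 0.09). Resistance genes have near-identical copies, and their counts are uncertain.

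Glucosinolate genes held some of the largest differences. Of 30 genes for aliphatic glucosinolates, 12 were higher and 3 lower, beside 8.79% and 8.6% of all genes, with a median of 0.27. *AOP2*, whose enzyme turns methylsulfinyl chains into alkenyl chains, was at 19.1, 32.8 and 27 RPM in WT-Col. In WT-C24 it was at 676.2, 867.5 and 777.4 RPM (4.88, SE 0.11, adjusted p = 1.03e-05), with no overlap. The annotation, which is of the Col genome, lists *AOP2* as a transcribed pseudogene. AT2G25450, the hydroxylase named GSL-OH that acts on alkenyl chains, was lower, from 1067.5, 650.8 and 681.1 RPM to 242.3, 154.5 and 200 RPM (-1.99, SE 0.11). The chain elongation enzyme gene *MAM3* (named *IMS2* in the annotation) rose by 1.00 (SE 0.11) and *MAM1* by 0.57 (SE 0.10). The S-oxygenase gene *FMO GS-OX3* fell by 1.07 (SE 0.10). The regulators *MYB28* (0.31) and *MYB29* (0.23) were not called and *MYB76* was higher (0.89). Without the replicate block 2 of the 30 were higher and 2 lower, and without replicate 1 or replicate 3 the higher genes numbered 6 and 7.

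Glucosinolates become toxic when myrosinases cut them and specifier proteins direct the product. The myrosinase genes *TGG1* (2606.1 to 3394 RPM over the 6 libraries) and *TGG2* were not called. Specifier genes were called. *ESP*, which directs breakdown to nitriles and epithionitriles, was at 18.4, 31 and 18.8 RPM in WT-Col and at 2204.5, 2342 and 2064.5 RPM in WT-C24, a ratio of means of 96.9 (6.61, SE 0.14, adjusted p = 1.03e-05). *ESM1*, known to favour isothiocyanates, was lower, from 927.4, 514.7 and 541 RPM to 73.6, 32.5 and 24.5 RPM (-4.02, SE 0.15). *NSP2* was at 0.2, 0.5 and 0.9 RPM against 20.5, 45.9 and 19.1 RPM (4.75, SE 0.31), and *NSP4* rose by 1.83 (SE 0.13). The myrosinase-binding protein gene *MBP1* fell by 2.81 (SE 0.31). In all, 4 of the 13 breakdown genes were higher and 3 lower (53.8% called, beside 17.4%), and 3 and 2 without the replicate block. Of 11 indole glucosinolate genes 4 were higher and 1 lower (45.5% called, beside 17.4%), but 0 without the replicate block, and 2 were higher without replicate 1 or replicate 3. The higher genes were led by *MYB122* (0.92, SE 0.21), *CYP81F2* (0.91) and *MYB51* (0.86), and *MYB34* was lower (-0.65, SE 0.10). In the 6 WT hybrid libraries, which carry both genomes, *ESP* was at 1350.1 to 2249 RPM, *ESM1* at 416 to 1047 RPM and *AOP2* at 256 to 470 RPM.

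Terpene and flavonoid genes that were called were lower. Of 8 kept terpene genes, 0 were higher and 4 lower (beside 8.6% of all genes lower), and 7 of the 8 had an unadjusted p under 0.05. Without the replicate block, and likewise without replicate 1, 2 were lower, and without replicate 2, 1 was higher. The thalianol cluster on chromosome 5 makes a root triterpene. Its synthase *THAS1* was at 66.1, 63.1 and 79.7 RPM in WT-Col and at 0.1, 0.2 and 0 RPM in WT-C24 (-6.88, SE 0.19). The desaturase *CYP705A5* of the same cluster was at 70.2, 72.6 and 81.3 RPM against 0.2, 0.4 and 0 RPM (-6.79, SE 0.21). The hydroxylase gene that lies between them, AT5G48000, was at 62, 55.6 and 67.8 RPM against 25.7, 33.5 and 64.7 RPM and was not called (-0.68, SE 0.21, adjusted p = 0.0735). Of the cluster genes listed here, 2 were thus close to 0 in C24 and the other was expressed. The monoterpene synthase *TPS03* fell by 2.27 (SE 0.49), and *CYP71A16* of the marneral cluster fell by 0.71 (SE 0.13).

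Of 20 flavonoid genes, 0 were higher and 5 lower at an adjusted p under 0.05 (25% called, beside 17.4%), and 12 had an unadjusted p under 0.05. The lower genes numbered 1 without the replicate block, 1 without replicate 1 and 3 without replicate 2, whereas 7 were lower and 1 higher without replicate 3. *UGT78D1*, a flavonol rhamnosyltransferase, was at 23.2, 33 and 73 RPM in WT-Col and at 1, 2 and 9.2 RPM in WT-C24 (-3.55, SE 0.21, adjusted p = 0.000172). Chalcone synthase (*CHS*), the entry enzyme, was at 51.2, 29.9 and 345.5 RPM against 18.2, 14.3 and 255.8 RPM (-0.98, SE 0.19). Replicate 3 was high for it in both accessions, so the groups overlapped, and *CHS* was not called without the replicate block. *FLS1*, flavonol synthase, was also lower (-0.75, SE 0.14), with replicate 3 high in both accessions.

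Flowering genes were called in both directions, 5 of 30 higher and 8 lower (43.3% called, beside 17.4%), with a median of -0.00. When the block was dropped 1 was higher and 3 lower, and higher genes numbered 2 without replicate 1 and 3 without replicate 2. *FLC* (chr5:3173382-3179448) was at 0.7, 0.6 and 0.8 RPM in WT-Col and at 62.5, 76.1 and 92.7 RPM in WT-C24 (6.0, SE 0.14, adjusted p = 1.03e-05). *SOC1*, a floral activator that FLC represses, was lower, from 55.1, 62.3 and 43.4 RPM to 23, 34.3 and 21.1 RPM (-1.04, SE 0.11), and *FT*, the mobile floral signal, was at 0.6 to 1.3 RPM in all 6 libraries and not called (-0.36, SE 0.20). *FRI*, an activator of *FLC*, was at 7.2 to 13.5 RPM and not called (0.27, SE 0.15). The relatives of *FLC* went in different directions. *MAF1* was at 24.1, 28.8 and 33.3 RPM against 1.5, 1.6 and 2.4 RPM (-3.66, SE 0.13), *MAF5* fell by 2.07 (SE 0.17) and *MAF2* by 0.87 (SE 0.12), whereas *MAF4* rose by 0.98 (SE 0.18). *VRN2*, of the Polycomb complex that silences *FLC* after cold, fell by 1.02 (SE 0.18), and the FLC repressor gene *FLK* by 0.47 (SE 0.09).

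Jasmonate genes were higher in 6 and lower in 4 of 32 cases (31.2% called, beside 17.4%), with a median of 0.17. There were 1 higher and 1 lower without the replicate block and 3 higher and 5 lower without replicate 3, so that the balance turned. *VSP2* and *VSP1* (-1.97, SE 0.45) were lower, and the defensin genes *PDF1.2* (-1.78, SE 0.28) and AT5G44430 (-1.44, SE 0.22), near-identical copies of each other, were lower with overlapping groups. Of the remaining defensin genes *PDF1.3* (1.3, SE 0.12), *LCR67* (1.46, SE 0.29) and AT1G19610 (0.68, SE 0.16) were higher, also with overlapping groups, and *PDF1.2b* (0.05) was not called. *AOC1*, an enzyme of jasmonate synthesis, rose by 1.14 (SE 0.18) and the ethylene response factor gene *ERF1* by 1.21 (SE 0.25), whereas *LOX2* (-0.30), *AOS* (0.25) and *MYC2* (0.25) were not called. Of 16 cold-responsive genes 4 were lower and 2 higher (37.5% called, beside 17.4%), with a median of -0.55, and 1 and 1 without the replicate block. *RD29A* was at 139.3, 157.7 and 54.9 RPM in WT-Col and at 12.2, 21.7 and 19.8 RPM in WT-C24 (-2.58, SE 0.34), *KIN2* fell by 3.11 (SE 0.35), *KIN1* by 2.20 (SE 0.29) and *COR15A* by 1.52 (SE 0.28). *RD29B*, a neighbour of *RD29A* that responds to abscisic acid and is active in seeds, rose from 1.4, 1.6 and 1.6 RPM to 15.8, 19.1 and 9.2 RPM (2.84, SE 0.22). The part of the seed markers given above in it was not tested.

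In the nutrient, growth and silencing lists the share called was 26.7% for phosphate, 22.2% for sulfate, 17.6% for auxin, 15.2% for silencing and 10% for iron, beside 17.4% of all genes, and without the replicate block 1 gene of these lists was called, *QQS*. Of 15 phosphate starvation genes, 1 was higher, the exporter *PHO1* (0.72, SE 0.12), and 3 were lower, the ribonuclease *RNS1* (-1.88, SE 0.26), *MGDC* (-1.09) and *MGD2* (-0.86). Of 10 iron genes the ferritin gene *FER1* was lower (-0.58, SE 0.13) and none higher (0 by limma, with 5 of the 10 at an unadjusted p under 0.05). Of 9 sulfate genes *SULTR2;1* was higher (0.65) and *SULTR1;2* lower (-0.37), and of 17 auxin genes *HB-2* was higher (1.31) and *TAA1* (-0.67) and *IAA1* (-0.62) lower. Called lower in the silencing list of 33, a share close to that of all genes, were *QQS*, which is a target and not part of the machinery, *RDR2* (-0.94, SE 0.12), *VIM1* (-0.82), *HTA7* (-0.71) and *CLSY1* (-0.56). *DDM1* itself was at 6.3, 9.5 and 12.6 RPM against 6, 7 and 12.4 RPM and was not called (-0.17, SE 0.14). The heat shock gene *HSP17.4*, with overlapping groups, was the 1 of 7 called (1.07). Of 4 senescence markers 3 were higher, and 1 without the replicate block: *SAG13* (1.59, SE 0.14), *ORE1* (0.94) and *SEN1* (0.71).

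No clock gene was called. Of 22 genes 0 were called in either direction with the replicate block, beside 17.4% of all genes. There were 0 without it, and 5 had an unadjusted p under 0.05 with the block (limma). *CCA1*, a morning factor, was at 5.8, 4.6 and 0.8 RPM in WT-Col and at 9, 74.8 and 1 RPM in WT-C24, so that WT-C24 replicate 2 stood far above the other libraries (1.56, SE 0.66). *TOC1*, an evening factor, was at 227.3, 176 and 252.5 RPM against 239.7, 46.1 and 252.7 RPM, with the same library lowest (-0.61, SE 0.37). *ELF4* was at 31.4, 77.9 and 108.1 RPM against 18, 5.8 and 90.2 RPM (-1.56, SE 0.59). Without replicate 2, 0 clock genes were called, and without replicate 3, 2 were higher, while 1 was lower without replicate 1. Among 37 genes of the photosystems, light harvesting and Rubisco, *CAB3* alone was called (2.7%, beside 17.4%), and the median was -0.01. *LHCB2.1* was at 1908.9, 1236.6 and 26.6 RPM in WT-Col and at 1185.5, 2141.7 and 24.3 RPM in WT-C24, so that replicate 3 was lowest in both. Without replicate 2 of both accessions, in which the clock genes differed, 2342 genes were called in all, 26 SA genes were higher and 1 lower, and 12 aliphatic glucosinolate genes were higher and 3 lower.

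**Figure D4:**
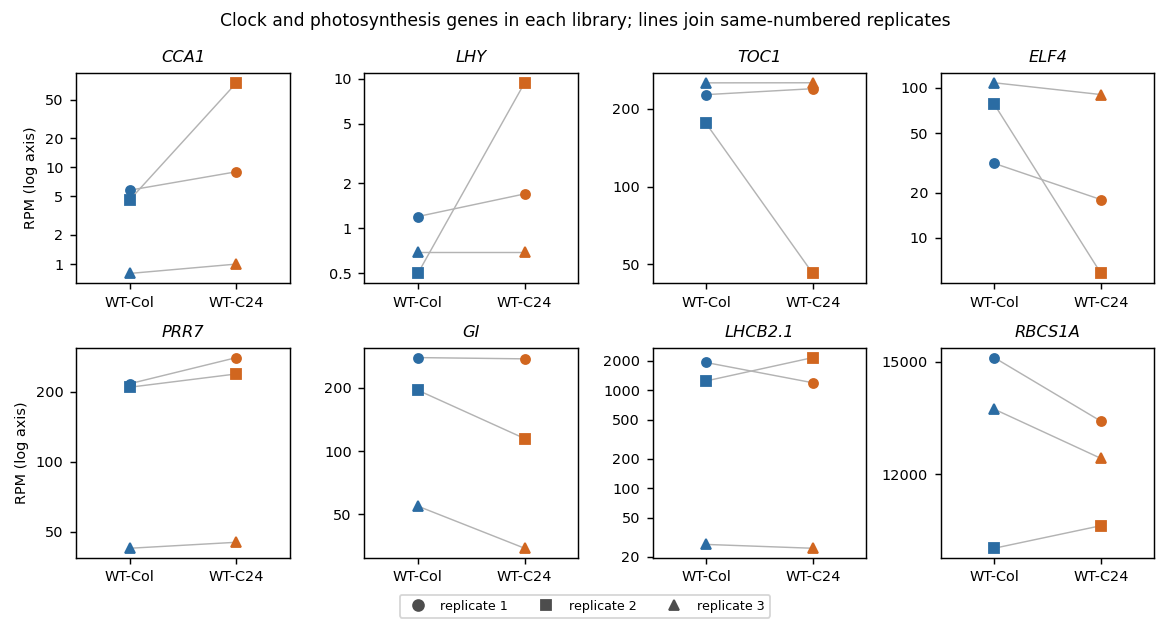
RPM of 6 clock genes, the light harvesting gene LHCB2.1 and the Rubisco gene RBCS1A in each library on a log axis, with lines joining libraries of the same replicate number. WT-C24 replicate 2 stands apart in CCA1 (74.8 RPM), LHY, TOC1 (46.1 RPM) and ELF4, and replicate 3 of both accessions is lowest in PRR7, GI and LHCB2.1.

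Some genes were listed at 0 in 1 accession. In all 3 WT-C24 libraries 13 genes were at 0 that reached 10 RPM or more in all 3 WT-Col libraries, and 3 genes were so in the opposite direction. The highest were AT4G34881 (45.7, 131.4 and 112.4 RPM in WT-Col), AT1G23960 (28.4, 52.5 and 47.7 RPM), the noncoding AT5G24735 (10.4, 50.6 and 48.5 RPM), the DNA binding protein gene AT3G47680 (30.2, 28.9 and 37.9 RPM) and the pseudogene AT4G08110 (23.3, 26.2 and 29.3 RPM). In C24 alone they were the hydroxyproline-rich glycoprotein gene AT1G63540 (33.1, 15 and 14.4 RPM), the pseudogene AT4G22450 (13.4, 16.2 and 28.4 RPM) and AT4G07965 (15, 17.3 and 22.9 RPM). All 16 were above 0 in each of the 6 WT hybrid libraries. Of the 13, 3 were also at 0 in all 3 *ddm1*-C24 libraries and 6 reached at most 0.1 to 0.4 RPM there. The remaining 4, all pseudogenes, were read in *ddm1*-C24, at up to 24 RPM for AT4G08110, 19.3 RPM for AT2G13970, 7.6 RPM for AT5G35935 and 3.4 RPM for AT1G35612, and of the 3, 0 were at 0 in all *ddm1*-Col libraries. The RPM values do not give depth, so a value of 0 means only that the level was under the step of 0.1 RPM in which the values are given.

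Genes that differed also lay side by side. There were 85 runs of 3 or more kept neighbours called in the same direction, 38 higher and 47 lower in C24, with 281 genes, and the longest held 5 genes (7 runs). The first 3 of these by position are given. At chr1:21742944-21797050, 5 genes were lower (-4.62 to -2.77), among them AT1G58602 at 155.7, 194.6 and 227.5 RPM against 28.8, 17.7 and 20.6 RPM and the resistance protein genes AT1G58807 and AT1G58848. At chr3:9578032-9599988 were 5 P450 genes, *CYP71B20*, *CYP71B22*, *CYP71B23*, *CYP71B3* and *CYP71B24*, all higher (0.42 to 1.40). At chr3:10538005-10599042, 5 genes were higher (0.61 to 4.85), with AT3G28270 at 17.4, 12.4 and 38.6 RPM against 405.3, 289 and 487 RPM. Neighbours of one family can share reads.

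The same accession difference was measured in 6 further libraries, *ddm1*-C24 and *ddm1*-Col, which share no sample with the WT libraries. There 21443 genes were kept, 4070 (19%) were higher and 2807 (13.1%) lower in C24. Without the replicate block, which may not match these libraries (see the processing), 1571 were higher and 1275 lower. After rescaling by median ratios, with the block, 3329 were higher and 3556 lower, so that the split turned. The median over all genes was 0.106 before rescaling. Of the genes higher in WT-C24, 1669 were kept in the *ddm1* libraries, 90.8% had the same sign and 1225 were called in the same direction, beside 60.3% of all 19354 genes kept in both with a positive difference in *ddm1*. Of the genes lower in WT-C24, 1646 were kept, 90.5% had the same sign and 1002 were called in the same direction, beside 39.7% of all with a negative one. In the opposite direction 21 and 13 were called. The test of the difference between the backgrounds (an interaction term) was called for 1079 (5.49%) of the 19655 genes and for 515 of the 3419 called in WT. Of the genes with differences over 2, 179 of 205 higher and 224 of 244 lower were called in the same direction.

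SA genes were higher in C24 in the *ddm1* libraries too, 32 of 40 called higher, beside 19% of all genes there. Their median was 1.89, against 0.106 over all genes. *PR1* differed by 5.26 and *ICS1* by 2.37. Of 30 aliphatic glucosinolate genes 2 were higher and 7 lower in *ddm1*-C24, beside 19% and 13.1% of all genes. The change of these counts from WT was not tested, and both lists were counted with the replicate block. *ECS1* (-9.12), *THAS1* (-7.08), *ESP* (5.62), *FLC* (4.58) and *AOP2* (3.90) kept their direction. Among the 30 genes with the largest WT differences the sign turned in *QQS* and *CYP702A5*. *QQS* was at 13.9, 40.4 and 54.9 RPM in *ddm1*-Col and at 29.6, 46.7 and 53.3 RPM in *ddm1*-C24 (0.41, SE 0.21, not called). *CYP702A5* was at 6.4, 7.2 and 5.4 RPM against 18, 16 and 17.1 RPM (1.37, SE 0.16, adjusted p = 0.00102), the opposite of its WT difference.

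**Figure D5:**
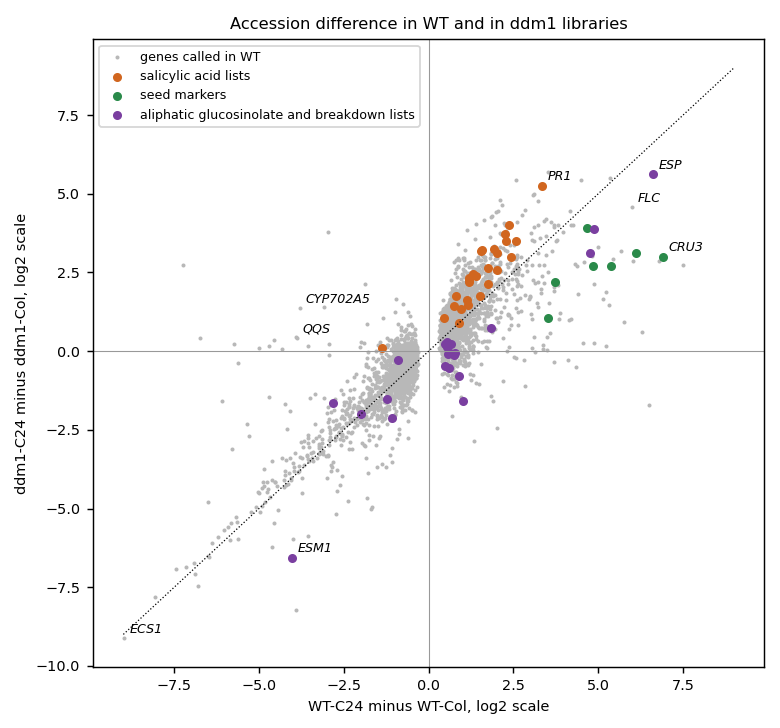
Accession difference on the log2 scale in the WT libraries (horizontal axis) against that in the ddm1 libraries (vertical axis) for the genes called in WT and kept in both, with equal differences on the dotted line and with SA, seed and glucosinolate genes in colour. Most genes lie at the lower left and the upper right, PR1 (3.34 and 5.26) lies above the line, and QQS and CYP702A5 lie above 0 on the vertical axis with negative WT differences.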

How the data were processed

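RNA of whole seedlings was sequenced by the authors as paired 90 base reads (Illumina HiSeq), trimmed, aligned to TAIR10 with TopHat and counted per gene with HTSeq. The deposited values are RPM, gene counts scaled to the reads of each library, given in steps of 0.1. Strand and overlap settings were not given in the sources used here. Columns summed to 999819.3 to 1000138.8, so depth is unknown and no counting intervals are given.

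The filter (1 RPM or more in 3 or more of the 6 libraries) kept 19655 genes, and 8782 were left out, of which 3147 were at 0 in all 6. limma 3.58.1 (R 4.3.3) was fitted with a variance trend on log2(RPM + 0.5), blocked on replicate number, and two-sided p-values were adjusted over all kept genes (Benjamini-Hochberg). On this scale the changes of weakly expressed genes come out too small. Same-numbered libraries deviated together (r of 0.855, 0.67 and 0.8 across genes, against -0.683 to 0.0791 for other pairs), which is where the pairing comes from. The deviations were taken from the mean of each accession and cancel within it. A high r of same-numbered pairs thus lowers that of the others, so the contrast is partly fixed by the centring. The *ddm1* libraries were fitted in the same way, and an interaction term gave the difference between backgrounds. The pairing was checked in the 6 WT libraries only. In *ddm1*-C24, replicate 2 lay near replicate 3 in genes that vary with replicate number. *CAB3* was at 3153.8, 794.7 and 769.1 RPM there and at 3434.7, 3978.3 and 344.8 RPM in *ddm1*-Col. The block may thus not match the *ddm1* libraries, and the calls there and by the interaction term depend on it. The script was tested on simulated data.

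Named were the 15 highest and 15 lowest protein coding genes with a symbol, called and with no overlap, the 3 most abundant called in each direction, and called or defining members of each list. The other genes named were chosen after their values were seen. Members and lists were chosen with earlier results of these data known. Alternatives were no block, other pseudocounts and filters, median-ratio rescaling, no variance trend, all 24 libraries, a fold over 2, and leaving out libraries. Names, positions and promoter windows came from RefSeq (TAIR10.1), which matched 28331 genes. A withheld promoter sequence is not reported here.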

Additional observations from a re-analysis of the deposited data

Results flagged for a closer look

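Of 95 named genes, the accession difference itself differed between *ddm1* and WT for 33, by the interaction term of limma at an adjusted p under 0.05 (Benjamini-Hochberg). Over all 19655 genes the term was called for 1079 (5.49%), and for 515 of the 3419 genes called in WT. The value given for each is the log2 difference in *ddm1* minus that in WT, so that a positive value is a shift towards C24. It was positive for 16 genes and negative for 17. Without the replicate block 4 of the 33 were still called, *CYP702A5*, *QQS*, *CYP71A13* and *IMS2*. The SA and seed genes given below were not. The 95 genes were chosen among those called in WT, many for a large difference, and the same WT values enter the term. A smaller difference in *ddm1* can thus follow from the choice alone, so the count of 33 is no test of these genes as a group. The block may also not match the *ddm1* libraries, as given with the processing.

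Of the seed genes, *OLEO1* was at -2.66, *SESA1* at -2.47, *OLEO2* at -2.13, *PER1* at -1.77, *TIP3;1* at -1.67 and *ICL* at -1.66. *BGLU19* was at -2.49. Of the glucosinolate genes, *IMS2* was at -2.59, *ESM1* at -2.55, *FMO GS-OX3* at -1.06, *ESP* at -0.99 and *AOP2* at -0.98. *FLC* was at -1.42.

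Of the SA genes, *PR1* was at 1.92, *PBS3* at 1.65, *NIMIN-2* at 1.63, *WRKY51* at 1.21 and *DMR6* at 0.88. The kinase genes *CRK23* and *CRK7* were at 1.77 and 1.65, *CYP71A13* of camalexin synthesis at 1.51 and *MYB122* of indole glucosinolate regulation at 1.22. The defensin gene *PDF1.2* was at -2.10.

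*CYP702A5* was at 5.15 and *QQS* at 4.28, followed by *ARGAH2* at 1.68 and *SPL4*, a promoter of flowering, at 1.39. Of the nutrient and hormone genes, *MGDC* was at -2.43, *MGD2* at -1.60, *IAA1* at -1.58, *FER1* at -1.23, *SULTR2;1* at -1.04 and *PHO1* at -0.72.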

How the results depend on the processing

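The replicate block set the number of calls. Without it 793 genes were called (418 higher, 375 lower), and 851 (437 and 414) with median-ratio rescaling as well. A fit of all 24 libraries called 5305 (2690 and 2615), and a fold over 2 left 1385 (722 and 663). Leaving out 1 replicate number, 1645 to 2342 genes were called (834 to 1241 higher, 811 to 1137 lower), fewest without replicate 1, and lower genes numbered 1101 without replicate 2. With no block, the calls (higher and lower) without WT-Col replicates 1, 2 and 3 were 634 (302 and 332), 464 (215 and 249) and 592 (305 and 287), and without WT-C24 replicates 1, 2 and 3 they were 604 (312 and 292), 483 (246 and 237) and 599 (289 and 310). Other pseudocounts, filters, rescaling and no variance trend gave 2351 to 3528 calls. In *ddm1*, no block gave 2846 calls (1571 and 1275) against 6877, and rescaling gave 3329 higher and 3556 lower. The cause was not tested. Of 95 named genes 54 were still called without the block. With no block, *CAB3* turned to -0.33, *TT4* (chalcone synthase) to 0.06 and *FLS1* to 0.65 without WT-Col replicate 3, and *FLS1* to 0.22 without WT-C24 replicate 1. Depth was not taken into account, which limits what can be said of genes near 0.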
